A study of Homo sapiens with 12 samples.

Results

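Untreated H9 cells were compared with untreated CT2 cells over every autosomal gene that the arrays detected. H9 and CT2 are human embryonic stem cell lines, each grown here with no hairpin and no other treatment, and each measured on 2 Illumina bead arrays. The members were chosen by position and detection and not by any difference: of 13951 genes tested, 12280 lay on an autosome and passed the detection threshold (detection p under 0.05) on at least 2 of the 4 untreated arrays. In the whole study the same lines were also given a mismatch hairpin or an shRNA against JMJD1C, a gene of the jumonji family of histone demethylases, with 2 arrays in each of the 6 groups and 12 arrays in all. Those other arrays (H9 with the mismatch hairpin, CT2 with the mismatch hairpin, H9 with the knockdown and CT2 with the knockdown) entered the normalization and the estimate of the spread, and they serve below as further arrays of the same lines. Each line stands for 1 donor embryo, so the comparison is of these lines and not of any property that they represent. No label says whether the 2 arrays of a group came from separate cultures, so p-values measure the spread between these arrays, which may be technical. The deposited table keeps each line in a block of its own, and no slide or date is given, so that line and any run in which a line was processed cannot be told apart.

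Human embryonic stem cells come from the early embryo and keep the capacity to form all tissues through a network of transcription factors that includes POU5F1, SOX2 and NANOG, with NODAL, activin and FGF signals as its main outside support. Lines from different embryos carry different genomes and different culture histories. They are known to differ in the state of imprinted loci, in which a gene is read from the copy of 1 parent only, and in sets of genes that some lines silence by promoter methylation.

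Both lines carried the markers of pluripotent cells. Of the 32 core pluripotency members, 31 were detected on each H9 array, and 32 on each CT2 array. POU5F1, the factor that defines the state, averaged 14.36 ± 0.05 log2 intensity in H9 and 14.09 ± 0.15 in CT2 (SD, n = 2 arrays each, as in all means below). NANOG averaged 12.25 ± 0.09 in H9 and 12.50 ± 0.01 in CT2. Neither difference passed the test, with adjusted p of 0.221 for POU5F1 and 0.395 for NANOG. The mean level of the listed neuronal genes was 9.002 and 8.98 on the H9 arrays, against 9.57 and 9.52 on the CT2 arrays. For the fibroblast and feeder list it was 9.02 and 9.18 in H9, against 9.09 and 9.25 in CT2. Of the 22 listed autosomal streak and mesoderm genes only 6 were members, as were 8 of 18 endoderm genes and 10 of 24 trophoblast and amnion genes. On the 4 untreated arrays between 21510 and 22384 probes were detected, and the number of arrays limits the precision of every value that follows.

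Between the lines 1956 of the 12280 members differed at an adjusted p under 0.05 in limma, which is 15.9%. Of these, 811 were higher in H9 (6.6%) and 1145 were lower in H9 (9.32%). Over all 13951 genes tested the share called was 14.7%, with 5.99% higher and 8.74% lower in H9. A difference under 1.5-fold held for 15 called genes higher and 21 lower in H9, and one of 1.5-fold to 2-fold for 319 higher and 435 lower. A difference of 2-fold to 4-fold held for 435 genes higher and 616 lower in H9, one of 4-fold to 8-fold for 34 higher and 54 lower, and one of 8-fold or more for 8 higher and 19 lower. Counting called genes with at least a 2-fold difference, 477 were higher in H9 (3.88%) and 689 were lower (5.61%). The H9 and CT2 arrays did not overlap for 7331 members, which is 59.7%, so that lack of overlap alone separates few genes from the rest.

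The number called rested on single arrays, and below each array left out is named as the one with the highest adjusted p, although others may also end that call. It was 352 without CT2 replicate 1, 561 without CT2 replicate 2, 837 without H9 replicate 1 and 1687 without H9 replicate 2. The balance of directions rested on the scaling: with median scaling in place of quantile normalization 1069 of 1642 called members were higher in H9 (65.1%) and 573 were lower, against 41.5% higher with quantile normalization, and the median of all genes was 0.13 with median scaling, against -0.01 with quantile normalization. The probe also mattered. Of the called members 560 had another probe that passed the filter, and for 232 of them a probe pointed the other way. That share was 45.5% for differences under 2-fold, 39% from 2-fold to 4-fold, and 21.4% at 4-fold and over.

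**Figure D1:**
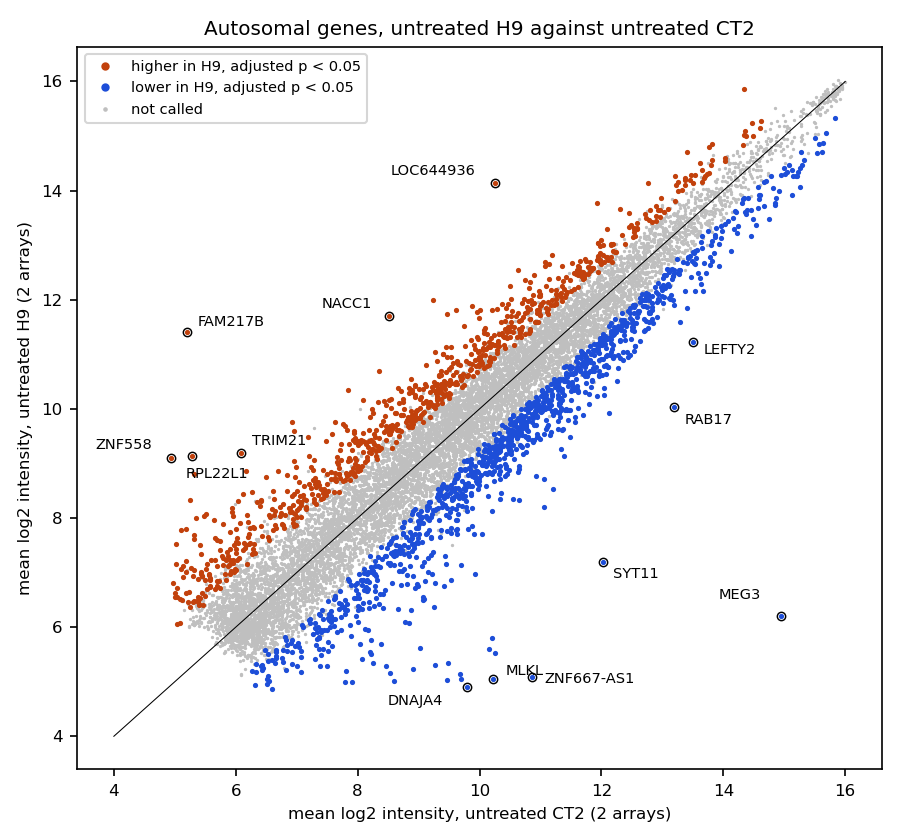
Mean log2 intensity of each of the 12280 autosomal members over the 2 untreated H9 arrays (vertical axis) against the 2 untreated CT2 arrays (horizontal axis), with the line of equal level. The 811 genes called higher in H9 lie above the line and the 1145 called lower lie below it, and MEG3 lies farthest from it.

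Among genes detected in both lines, the largest difference belonged to MEG3, a long noncoding RNA that is read from the maternal copy of an imprinted cluster. MEG3 measured 5.92 and 6.48 log2 intensity on the H9 arrays, against 14.97 and 14.91 on the CT2 arrays. The lowest signal still detected was 5.92 on H9 replicate 1 and 5.98 on H9 replicate 2, so MEG3 in H9 lay at or near the floor and the true difference may be larger. The log2 difference, H9 minus CT2, was -8.74 ± 0.30 (model SE) with an adjusted p of 2.74e-11, and a second MEG3 probe gave -7.04. SYT11, a synaptotagmin of vesicle traffic, measured 7.31 and 7.09 in H9, against 12.06 and 11.99 in CT2, a difference of -4.83 ± 0.30 (adjusted p 3.17e-08). RAB17, a small GTPase of epithelial vesicle sorting, measured 9.73 and 10.34 in H9, against 13.26 and 13.11 in CT2, a difference of -3.16 ± 0.27 (adjusted p 1.92e-06). For all 3 genes both H9 arrays lay more than 2 log2 units below both CT2 arrays.

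The other genes with the largest falls in H9 were the transcription factor USF1 (-2.95), the serotonin receptor HTR7 (-2.89), the homeobox gene PRRX2 (-2.85), CCDC152 (-2.77), the zinc importer SLC39A4 (-2.69), the glutathione transferase GSTT2B (-2.68) and CDC42SE1 (-2.67), all as log2 differences. HTR7, CCDC152, SLC39A4 and GSTT2B were above background on 1 of the 2 H9 arrays only. GSTT2B has a near-identical neighbour, GSTT2, and a probe may read both. With the mismatch hairpin the line difference was positive for USF1 (1.80), CDC42SE1 (0.79) and PRRX2 (0.17). It stayed negative for HTR7, CCDC152, SLC39A4 and GSTT2B. The calls of USF1 and CDC42SE1 were lost when single arrays were left out, with adjusted p of up to 0.117 for USF1 and 0.102 for CDC42SE1, both without H9 replicate 2.

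The largest rise in H9 among genes detected in both lines was that of LOC644936, a locus that the array annotation names by its identifier alone, with 14.68 and 13.59 log2 intensity in H9 and 10.11 and 10.38 in CT2. Its difference was 3.89 ± 0.58 (adjusted p 0.00152), and the H9 arrays differed by more from each other than the CT2 arrays did. TRIM21, a ubiquitin ligase that binds antibodies inside cells, measured 8.87 and 9.50 in H9, against 6.06 and 6.11 in CT2, with a difference of 3.10 ± 0.30 (adjusted p 7.04e-06). SALL1, a zinc finger factor of organ development, measured 8.87 and 8.86 in H9, against 6.15 and 6.18 in CT2, with a difference of 2.69 ± 0.33 (adjusted p 9.93e-05). In both genes the arrays of the lines did not overlap, and the TRIM21 arrays of H9 lay further apart than those of SALL1. NACC1 (3.18), LRRC58 (2.84), SSBP3 (2.76), WDR81 (2.64), PACS1 (2.50), MAZ (2.34) and OLIG2 (2.32) complete the group as log2 differences. OLIG2 is a factor of motor neuron and oligodendrocyte precursors, and MAZ is a zinc finger protein that binds GC-rich promoters. A second LRRC58 probe gave -0.57, the opposite sign. With the mismatch hairpin the line difference was negative for NACC1 (-1.37), PACS1 (-0.86), MAZ (-0.63) and SSBP3 (-0.62). With the knockdown these genes were higher in H9 by 0.73, 0.61, 0.74 and 0.91 and were not called. The other genes of the group kept their sign with the mismatch hairpin. SALL1 differed there by only 0.30, with 8.24 and 8.60 on the CT2 arrays. The call of PACS1 was lost without CT2 replicate 1 (adjusted p 0.0682).

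A further 265 members were detected on H9 arrays only and 175 on CT2 arrays only. Such genes passed the filter through the line in which they were high. Of them, 86 were called as higher in H9 with both CT2 arrays at background, and 70 as lower in H9 with both H9 arrays at background. For these genes the fold is a lower bound, set against the lowest signal that was still detected on each array. FAM217B, a gene of unknown role on chromosome 20, measured 11.60 and 11.209 log2 intensity in H9, against 5.34 and 5.07 at background in CT2, and was at least 41.8-fold higher in H9 (adjusted p 3.14e-10). Its neighbour PPP1R3D, which encodes a glycogen-targeting subunit of protein phosphatase 1, measured 6.92 and 7.09 in H9, against 5.76 and 5.11 at background in CT2, and was at least 1.97-fold higher (adjusted p 0.00775). Both genes were higher in H9 on every untreated array, although the PPP1R3D call was lost without CT2 replicate 2 (adjusted p 0.0992).

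RPL22L1, a ribosomal protein paralogue, was at least 8.71-fold higher in H9, with 9.56 and 8.72 log2 intensity in H9 and 5.45 and 5.12 in CT2. Zinc finger genes made up 3 of the 8 largest bounds in this direction, with ZNF558 at least 8.48-fold, ZNF280B at least 6.92-fold and ZNF248 at least 4.15-fold higher in H9. WFIKKN1, a secreted inhibitor of growth factors, was at least 4.95-fold higher, the plasma glycoprotein gene ORM1 at least 4.06-fold and CTAGE15 at least 3.94-fold. A second CTAGE15 probe gave a log2 difference of 0.56. All 8 calls in this group held under every alternative setting that could be run for the gene, which was 14 for each but ORM1, with 13, since ORM1 was not tested with the filter of 6 of 12 arrays.

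In the other direction, ZNF667-AS1, a noncoding RNA divergent to the zinc finger gene ZNF667, measured 5.08 and 5.09 log2 intensity at background in H9, against 10.87 and 10.84 in CT2, and was at least 29.98-fold lower in H9 (adjusted p 3.14e-10). ZNF667 itself, named here after its values were seen, measured 5.28 and 5.20 in H9, against 8.80 and 9.02 in CT2, and was at least 7.78-fold lower in H9 (adjusted p 7.78e-06). Both RNAs of the pair were thus at background in H9 and well above it in CT2. The promoters of this pair and of the FAM217B and PPP1R3D pair are shown because in each case neighbouring genes moved together. They are the RefSeq windows of 300 bases (GRCh38.p14), from 250 bases before the start to 50 after it, written 5′ to 3′ on the gene's strand with each CG dinucleotide in capitals. The ZNF667 window is chr19:56477296-56477595 on the minus strand with 42 CG dinucleotides, the ZNF667-AS1 window chr19:56477624-56477923 on the plus strand with 24, the FAM217B window chr20:59933529-59933828 on the plus strand with 39, and the PPP1R3D window chr20:59940256-59940555 on the minus strand with 36.
ZNF667: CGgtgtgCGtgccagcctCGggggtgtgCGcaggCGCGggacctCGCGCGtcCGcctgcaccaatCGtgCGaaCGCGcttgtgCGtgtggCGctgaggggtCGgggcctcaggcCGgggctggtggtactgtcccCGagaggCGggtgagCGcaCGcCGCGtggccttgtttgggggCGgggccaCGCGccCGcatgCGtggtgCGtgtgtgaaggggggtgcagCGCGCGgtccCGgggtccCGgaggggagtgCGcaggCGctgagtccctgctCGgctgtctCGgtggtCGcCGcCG
ZNF667-AS1: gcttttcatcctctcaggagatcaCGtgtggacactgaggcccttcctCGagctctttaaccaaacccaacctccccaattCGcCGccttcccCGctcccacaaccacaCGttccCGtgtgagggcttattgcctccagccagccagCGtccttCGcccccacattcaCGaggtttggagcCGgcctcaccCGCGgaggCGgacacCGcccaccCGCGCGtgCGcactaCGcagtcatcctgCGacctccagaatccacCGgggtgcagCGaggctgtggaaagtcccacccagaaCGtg
FAM217B: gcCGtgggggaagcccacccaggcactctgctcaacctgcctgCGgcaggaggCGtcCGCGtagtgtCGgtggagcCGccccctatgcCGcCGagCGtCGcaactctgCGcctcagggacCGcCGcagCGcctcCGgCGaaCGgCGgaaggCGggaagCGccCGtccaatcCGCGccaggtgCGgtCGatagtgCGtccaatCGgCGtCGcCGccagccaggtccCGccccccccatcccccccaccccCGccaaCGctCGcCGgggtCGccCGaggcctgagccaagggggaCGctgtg
PPP1R3D: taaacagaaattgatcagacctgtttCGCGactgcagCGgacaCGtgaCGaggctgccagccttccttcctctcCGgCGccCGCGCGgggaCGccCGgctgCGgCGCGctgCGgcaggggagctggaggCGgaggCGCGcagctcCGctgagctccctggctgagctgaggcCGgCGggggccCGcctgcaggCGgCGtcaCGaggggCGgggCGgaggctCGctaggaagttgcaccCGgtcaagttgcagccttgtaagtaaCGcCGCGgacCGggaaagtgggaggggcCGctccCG

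Of the other genes at background in H9, MLKL, the membrane-breaking effector of necroptosis, measured 5.02 and 5.07 log2 intensity in H9, against 10.35 and 10.10 in CT2, and was at least 19.43-fold lower in H9 (adjusted p 1.23e-08). QPCT, an enzyme that caps peptide ends with pyroglutamate, was at least 19-fold lower, with 5.88 and 5.71 in H9 and 10.16 and 10.23 in CT2. DNAJA4, a co-chaperone of the HSP40 class, was at least 14.39-fold lower, with 5.01 and 4.80 in H9 and 9.76 and 9.83 in CT2. QNG1, an enzyme that salvages the tRNA base queuine, was at least 13.44-fold lower, with 4.80 and 5.28 in H9 and 9.75 and 9.65 in CT2. Each of these was at background in untreated H9 and bright in untreated CT2. QNG1 did not keep this pattern on the other arrays: it measured 8.87 and 9.30 in H9 with the knockdown, and 5.39 and 5.42 in CT2 with the mismatch hairpin.

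**Figure D2:**
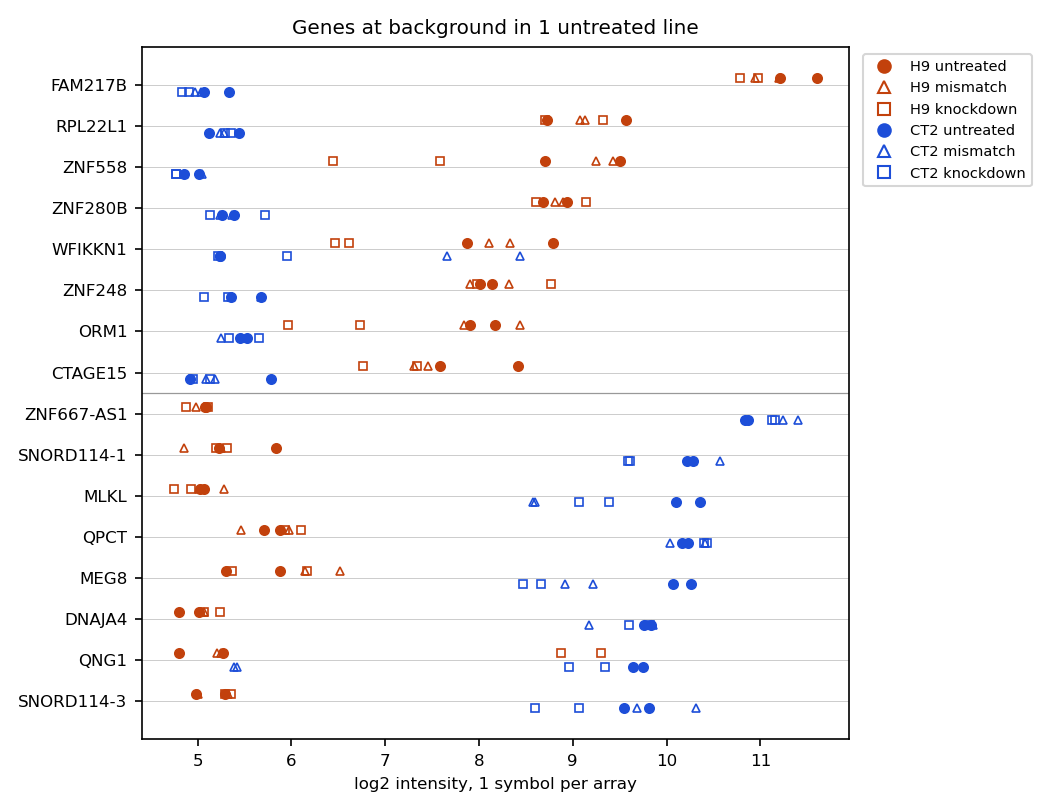
Log2 intensity on each of the 12 arrays (horizontal axis, 1 symbol per array) for the 8 genes at background in untreated CT2 (upper rows) and the 8 at background in untreated H9 (lower rows) with the largest fold bounds, H9 in orange and CT2 in blue. Filled circles are untreated arrays, and FAM217B, ZNF667-AS1, QPCT and DNAJA4 keep the lines apart on all 12 arrays, whereas QNG1 and WFIKKN1 do not.

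The MEG3 difference extended to neighbouring RNAs. MEG3 lies in the DLK1 to DIO3 cluster of chromosome 14, where the paternal copy gives the protein genes DLK1 and DIO3 and the maternal copy gives the noncoding genes MEG3, MEG8 and MEG9 with the small nucleolar RNAs and miRNAs of the SNORD113, SNORD114 and MIR families. The RefSeq order lists 122 genes in this interval, of which 16 were tested and 15 were members. Of the 15 members 9 were lower in H9, 0 were higher and 6 did not pass the test, while 9.32% of all members were lower. Among these 9, only MEG3 and MIR300 were detected in both lines. The others became members through the CT2 arrays alone, and 0 members of that kind were called higher in H9 in the whole comparison. Their direction was thus fixed by the detection rule, so the 9 of 15 cannot be weighed against the 9.32%. All 9 that were lower belong to the noncoding genes, but DLK1 was the only protein gene among the 15 members. The genes measured thus nearly fixed this split, and the set was described as a whole after the MEG3 value was seen.

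MEG8 measured 5.31 and 5.88 log2 intensity in H9, against 10.26 and 10.06 in CT2, and was at least 18.55-fold lower in H9 (adjusted p 1.68e-07). SNORD114-1 measured 5.23 and 5.84 in H9, against 10.21 and 10.28 in CT2, and was at least 19.67-fold lower. SNORD114-3 was at least 13.28-fold lower, with 5.29 and 4.99 in H9 and 9.55 and 9.81 in CT2. The H9 arrays were at background for all 3 of these RNAs, so the true ratio may be larger. MEG9 was at least 11.6-fold lower (adjusted p 1.92e-06), and SNORD114-31, SNORD114-13 and SNORD113-3 were dim in CT2 too, with bounds of 1.84-fold, 1.48-fold and 1.47-fold. MIR300, the host of a miRNA, was above background in both lines, with 7.01 and 7.39 in H9 and 9.19 and 8.98 in CT2, a log2 difference of -1.89 ± 0.32 (adjusted p 0.00141).

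The protein gene DLK1, a NOTCH-like growth regulator, measured 6.85 and 7.57 in H9, against 7.82 and 7.65 in CT2, with a log2 difference of -0.52 ± 0.40 (adjusted p 0.411). MIR665, SNORD113-1, SNORD113-7, SNORD114-2 and MIR1185-1 also missed the threshold, with log2 differences from -0.82 (SNORD114-2) to 0.19 (SNORD113-1), which does not show that they were alike in the lines. DIO3 was tested but was too dim to be a member. The MEG3 promoter window is shown because its transcript carries the largest difference of the comparison, on chr14:100825858-100826157 of the plus strand (RefSeq, GRCh38.p14), with each of its 19 CG dinucleotides in capitals. The mature miRNA of MIR300 is shown with its seed, bases 2 to 8, in capitals, from chr14:101041414-101041435 on the plus strand, and the arrays measured its precursor transcript and not this product.
MEG3: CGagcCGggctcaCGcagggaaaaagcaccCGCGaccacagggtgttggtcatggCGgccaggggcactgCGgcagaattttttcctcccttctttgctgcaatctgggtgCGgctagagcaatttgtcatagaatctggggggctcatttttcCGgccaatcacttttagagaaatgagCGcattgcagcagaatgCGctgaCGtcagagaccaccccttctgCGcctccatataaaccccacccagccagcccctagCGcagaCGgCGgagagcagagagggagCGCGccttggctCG
hsa-miR-300: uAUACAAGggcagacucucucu

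**Figure D3:**
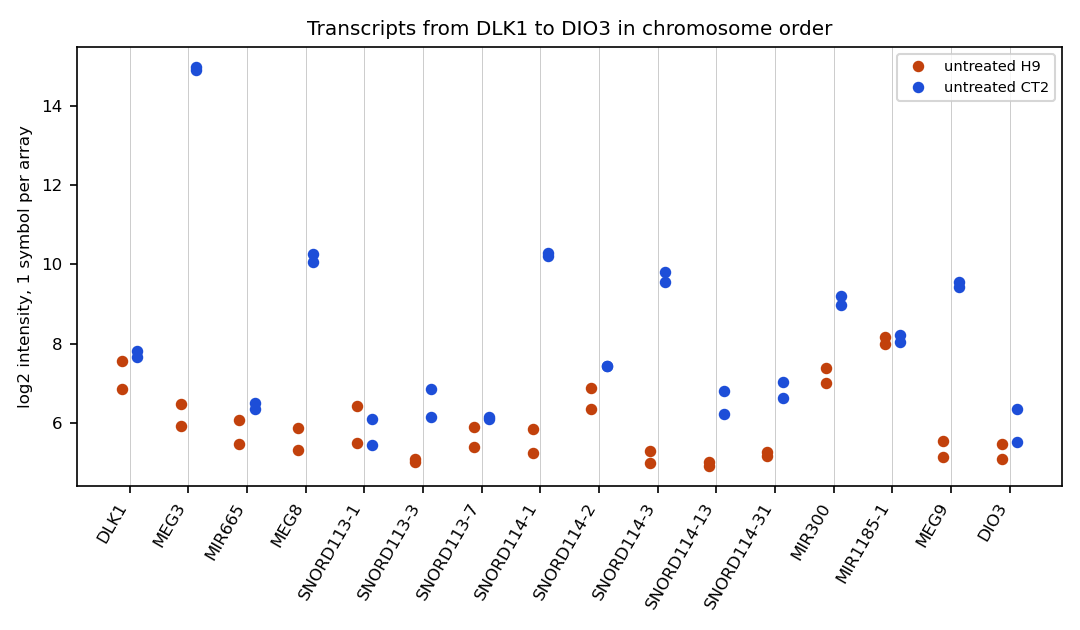
Log2 intensity (vertical axis, 1 symbol per array) of the 16 tested transcripts from DLK1 to DIO3 in chromosome order (horizontal axis), untreated H9 in orange left of untreated CT2 in blue. MEG3, MEG8, SNORD114-1, SNORD114-3 and MEG9 lie between 4.99 and 6.48 in H9 and between 9.42 and 14.97 in CT2, while the arrays of the lines overlap for MIR1185-1 and SNORD113-1.

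The listed imprinted genes were called about as often as other members, but of the 9 cluster members lower in H9 the list holds MEG3 alone. Of 37 members of this list, 1 was higher in H9 and 4 were lower (13.5%, against 15.9% of all members). Their median log2 difference was 0.05, against -0.01 for all members. Beside MEG3, the growth inhibitor CDKN1C measured 6.96 and 7.71 in H9, against 8.47 and 8.72 in CT2, a difference of -1.26 ± 0.33 (adjusted p 0.0194). NNAT, a membrane protein of developing neurons, was lower by a log2 difference of -0.60, and NLRP2, a maternal-effect gene, was higher by 0.72. These 3 calls were lost when single arrays were left out, with adjusted p of up to 0.171 for CDKN1C without H9 replicate 1, 0.21 for NNAT without CT2 replicate 2 and 0.184 for NLRP2 without CT2 replicate 1. CDKN1C was higher in H9 by 0.14 with the mismatch hairpin and by 0.30 with the knockdown. Only 1 called gene of the list, MEG3, kept its sign in both other sets of arrays. SNRPN averaged 14.92 ± 0.09 in H9 and 14.86 ± 0.13 in CT2, and H19 averaged 7.68 ± 0.17 in H9 and 7.66 ± 0.13 in CT2, both named after their values were seen.

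Among genes of the pluripotent state the calls in the core list were higher in H9 and those in the naive list were lower. Of 32 core members, 4 were higher in H9 and 0 were lower (12.5%, against 15.9% of all members), with a median log2 difference of 0.10. UTF1, a chromatin factor of undifferentiated cells, measured 8.74 and 9.30 in H9, against 7.92 and 7.40 in CT2, a difference of 1.36 ± 0.43 (adjusted p 0.0425). OTX2, a homeobox factor of primed pluripotency and forebrain, measured 12.35 and 11.17 in H9, against 10.55 and 10.69 in CT2, a difference of 1.14 ± 0.34 (adjusted p 0.0339). SOX2 differed by 0.70 and POLR3G, an RNA polymerase III subunit, by 0.64. Of these 4 genes, 2 kept their sign in both other sets of arrays. UTF1 was lower in H9 with the mismatch hairpin (-1.17) and with the knockdown (-0.82), and SOX2 was lower with the mismatch hairpin (-0.54). All 4 calls depended on single arrays, with adjusted p of up to 0.256 for UTF1 without CT2 replicate 2, 0.325 for OTX2 and 0.379 for SOX2 without H9 replicate 1, and 0.224 for POLR3G without CT2 replicate 1.

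Of 10 members of the naive pluripotency list, which marks the earlier state of the embryo's epiblast, 3 were lower in H9 and 0 were higher (30%), with a median of -0.26 that was -0.01 with median scaling. SOX15 measured 9.02 and 9.95 in H9, against 11.10 and 10.77 in CT2, a log2 difference of -1.46 ± 0.35 (adjusted p 0.0121). TFCP2L1 and KLF2, transcription factors of the naive network, were lower by -1.29 and -1.04. These calls too were lost when single arrays were left out, with adjusted p of up to 0.129, 0.168 and 0.161. Leaving out 1 array at a time gave between 0 and 2 calls on this list and between 0 and 5 on the core list.

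In NODAL and activin signalling, 2 of 19 members were lower in H9 and 0 were higher (10.5%, against 15.9% of all members), whereas with median scaling 2 were higher and 1 was lower. LEFTY2, a secreted inhibitor of NODAL, measured 10.95 and 11.52 in H9, against 13.51 and 13.49 in CT2, a log2 difference of -2.26 ± 0.24 (adjusted p 2.93e-05) that held under all 14 alternatives. NODAL itself, the ligand, measured 10.36 and 9.92 in H9, against 10.94 and 10.92 in CT2, a difference of -0.79 ± 0.22 (adjusted p 0.024), which was lost without CT2 replicate 1 (adjusted p 0.151). LEFTY1, the paralogue of LEFTY2, averaged 13.86 ± 0.44 in H9 and 13.15 ± 0.33 in CT2 with a difference of 0.70 that missed the threshold (adjusted p 0.0591), and was named after its value was seen. The 2 inhibitors thus had opposite signs.

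Of 18 WNT members, 4 were higher in H9 and 3 were lower (38.9%). SFRP1, a secreted WNT antagonist, measured 14.65 and 14.76 in H9, against 13.44 and 13.38 in CT2, a log2 difference of 1.30 ± 0.15 (adjusted p 3.92e-05). FZD2, a receptor, was higher by 1.23 (adjusted p 0.00229), and WNT3, a ligand of the primitive streak, was lower with 6.58 and 6.48 in H9 and 8.14 and 8.45 in CT2 (adjusted p 0.00163). While 6 of the called WNT genes kept their sign in both other sets of arrays, WNT3 was higher in H9 with the mismatch hairpin (0.62) and with the knockdown (0.24). NKD1, a feedback inhibitor, was higher by 1.35 and was above background on 1 of 2 CT2 arrays. Its call was lost without CT2 replicate 1 (adjusted p 0.143). Among 21 FGF and ERK response members 1 was higher and 1 lower (9.52%): the immediate early factor EGR1 was higher in H9 by 0.76 (adjusted p 0.0287) and JUN, a subunit of the AP-1 factor, lower by -1.35 (adjusted p 0.00282). EGR1 lost its call without CT2 replicate 1 (adjusted p 0.156).

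Markers of neural cells differed in both directions. Of 15 neural progenitor members, 4 were higher in H9 and 1 was lower (33.3%, median 0.35), while of 18 neuronal members 1 was higher and 6 were lower (38.9%, median -0.17). SFRP1, given above with the WNT genes, is also on the progenitor list and counts among its genes higher in H9. ZIC2, a zinc finger factor of early neural tissue, measured 14.19 and 14.11 in H9, against 12.76 and 12.78 in CT2, a log2 difference of 1.38 ± 0.18 (adjusted p 1.51e-04). NES, an intermediate filament of progenitors, was higher by 0.73, a call lost without CT2 replicate 1 (adjusted p 0.11). HES5, a NOTCH target, was at background in H9 and at least 1.97-fold lower there (adjusted p 0.00344). Beside SYT11, NEFH, a neurofilament protein, measured 7.42 and 8.01 in H9, against 10.10 and 9.72 in CT2, a difference of -2.20 ± 0.30 (adjusted p 2.98e-04). TUBB3, a tubulin of neurons, was lower by -1.13 and the RNA-binding protein ELAVL3 was at least 2.67-fold lower, 2 calls that were lost without H9 replicate 1 for TUBB3 (adjusted p 0.125) and without CT2 replicate 1 for ELAVL3 (adjusted p 0.115). With median scaling 5 progenitor genes were higher and 1 lower, and 1 neuronal gene was higher and 5 lower. TUBB3 was higher in H9 with the mismatch hairpin (0.86), while 4 of the called neuronal genes kept their sign in both other sets of arrays.

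In the neural crest list 1 of 8 members was higher (CDH6, 1.02, lost without CT2 replicate 2 with adjusted p 0.191) and 1 lower. The lower gene was EDNRB, the endothelin receptor of crest cells, with 9.62 and 9.65 in H9 and 11.48 and 11.27 in CT2 (adjusted p 2.06e-04). Of 8 endoderm members 2 were higher in H9, the chemokine CXCL5 by 1.03 and the receptor KIT by 0.80, and both calls were lost when single arrays were left out, with adjusted p of up to 0.204 without H9 replicate 1 and 0.176 without CT2 replicate 1. Of the 6 streak and mesoderm members ISL1 alone was called, lower by -1.14, and it is also on the trophoblast and amnion list, where 2 of 10 members were lower and, with median scaling, 0. The second of these was IGFBP3, lower by -1.07. Both calls were lost without CT2 replicate 1, with adjusted p of 0.179 and 0.125.

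Of 17 fibroblast and feeder members 1 was higher in H9 and 4 were lower (29.4%, median 0.08), and with median scaling 3 were higher and 3 lower. ACTA2, smooth muscle actin, measured 7.78 and 8.16 in H9, against 9.59 and 9.68 in CT2, a log2 difference of -1.66 ± 0.27 (adjusted p 0.00111). TWIST2, a mesenchymal factor, was at least 2.5-fold higher in H9 (adjusted p 0.00112). TAGLN was lower by -0.76 and POSTN at least 1.56-fold lower, 2 calls lost without CT2 replicate 2 (adjusted p 0.157 and 0.11). With the mismatch hairpin TAGLN (0.84) and POSTN (0.15) were higher in H9, while 3 called genes of the fibroblast list kept their sign in both other sets of arrays. Among 30 matrix and integrin members 6 were higher and 2 lower (26.7%, median 0.17), with the collagens COL9A3 (1.62), COL4A2 (1.51) and COL6A1 (1.09) higher and the integrin subunit ITGB5 (-0.53) lower. These 4 calls were lost when single arrays were left out, with adjusted p of up to 0.231, 0.0821, 0.122 and 0.129. In bulk RNA fewer cells of a type and less RNA per cell cannot be told apart, and the part of other cell types in these differences was not tested.

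Antigen presentation genes of the major histocompatibility complex differed in both directions, 6 of 26 members being higher in H9 and 3 lower (34.6%, median 0.15). HLA-B, a class I chain, measured 9.37 and 9.70 in H9, against 7.49 and 7.67 in CT2, a log2 difference of 1.95 ± 0.24 (adjusted p 1.27e-04). The class I pseudogene HLA-H was higher by 1.47 and HLA-F, a nonclassical class I chain, by 1.44, the HLA-F call being lost without CT2 replicate 2 (adjusted p 0.0907). HLA-DPA1, a class II chain, measured 7.70 and 7.85 in H9, against 5.28 and 4.94 at background in CT2, and was at least 3.37-fold higher (adjusted p 2.39e-04). The class II genes HLA-DMB and HLA-DMA were called lower in H9, by between 1.40 and 1.44 on the log2 scale. Class II genes were thus called in both directions. HLA genes are near-identical in parts and vary between people, so a probe may read several genes or bind some alleles better than others.

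Of 27 interferon response members 2 were higher in H9 and 5 lower (25.9%, median -0.13, and -0.01 with median scaling). IRF1, an interferon-induced transcription factor, measured 6.34 and 6.71 in H9, against 9.26 and 8.92 in CT2, a log2 difference of -2.57 ± 0.49 (adjusted p 0.00398). On the mismatch arrays the line difference was 1.38 for IRF1 and 0.33 for IRF7, while 5 called genes of the list kept their sign in both other sets. In untreated H9 IFI6 (-1.40), IRF7 (-1.21) and MX1 (-1.11) were lower beside IRF1, and a second IRF7 probe gave 0.82, the opposite sign. Without CT2 replicate 1 these 4 calls were lost, with adjusted p of 0.0601 for IRF1, 0.0564 for IFI6, 0.0974 for IRF7 and 0.095 for MX1.

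Of 21 members listed as variable or silenced among pluripotent lines, 4 were higher in H9 and 5 were lower (42.9%). Beside QNG1 and ZNF248, CSRP1, a LIM-domain protein of muscle, measured 5.57 and 5.65 at background in H9, against 8.63 and 9.43 in CT2, and was at least 8.45-fold lower in H9 (adjusted p 9.05e-06). CRYZ, a quinone reductase, measured 10.40 and 10.12 in H9, against 11.99 and 12.08 in CT2, a log2 difference of -1.78 ± 0.21 (adjusted p 8.80e-05). Both genes varied within a line. CSRP1 measured 5.41 and 5.67 in CT2 with the mismatch hairpin, where the line difference was -0.33, against -5.74 with the knockdown. CRYZ measured 5.54 and 5.58 in H9 with the mismatch hairpin and 11.67 and 12.04 with the knockdown. Its line difference was -6.75 and -0.54 there. The list was chosen with these data in view and from reports on such lines, so its share is not independent evidence. Of 29 glutathione and aldo-keto members 1 was higher and 5 were lower (20.7%), among them GSTT2 by -2.26 (adjusted p 3.39e-04) and GSTZ1 by -1.40 (adjusted p 0.00285).

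Clustered protocadherins, adhesion proteins from gene arrays on chromosome 5 whose promoters are chosen cell by cell, were mostly lower in H9 where they were called: 1 of 24 members was higher and 7 were lower (33.3%). Their median log2 difference was -0.45, and -0.30 with median scaling. PCDHA2 measured 5.20 and 5.13 at background in H9, against 8.51 and 8.56 in CT2, so that its level in H9 was at least 6.01-fold lower, with adjusted p 9.17e-06. PCDHB5 measured 8.29 and 8.36 in H9, against 10.63 and 10.65 in CT2, a difference of -2.31 ± 0.26 (adjusted p 3.92e-05). The pseudogene PCDHB18P was at least 4.84-fold lower and PCDHB12 lower by -1.48, the call of PCDHB12 being lost without H9 replicate 2 (adjusted p 0.0794). Without single arrays between 3 and 5 protocadherins were called, and their sequences are alike enough that probes may be shared.

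Replication-dependent histone genes, whose RNAs lack a poly(A) tail in their main form, were also lower where called, with 0 of 25 members higher and 6 lower in H9 (24%, median -0.45, and -0.34 with median scaling). H4C8 measured 6.39 and 6.27 in H9, against 8.49 and 8.82 in CT2, a log2 difference of -2.33 ± 0.32 (adjusted p 2.98e-04). H4C14 was lower by -1.83 and H2BC5 by -1.41, and H2AC6 by -1.07, the last of which was lost without CT2 replicate 1 (adjusted p 0.0923). Of 32 members of G1/S and replication 2 were higher and 3 lower (15.6%), and of 32 members of G2/M and mitosis 1 was higher and 2 lower (9.38%), against 15.9% of all members. Cyclin D3, CCND3, measured 10.61 and 10.63 in H9, against 12.11 and 11.82 in CT2 (adjusted p 0.00131), and the licensing factor CDT1 was lower by -1.37, a call lost without CT2 replicate 1 (adjusted p 0.134).

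Metabolic and stress genes were called in both directions. Of 20 glycolysis members 1 was higher in H9 and 5 lower (30%, median -0.03), with the glucose transporters SLC2A1 (-1.04) and SLC2A3 (-0.56) lower and pyruvate kinase PKM (1.11) higher. With median scaling 2 were higher and 2 lower, and without CT2 replicate 1 the adjusted p of these 3 genes was 0.0535, 0.12 and 0.0854. Of 39 respiratory chain members 3 were higher and 1 lower (10.3%). Of 21 members of cholesterol and fatty acid synthesis 2 were higher, LSS by 0.82 and FADS1 by 0.75, and 0 lower (9.52%). Of 16 heat shock members 1 was higher and 4 lower (31.2%, median -0.37), led by HSPA1B with 11.04 and 11.24 in H9 and 12.55 and 12.55 in CT2 (adjusted p 7.13e-04), whose sequence is nearly that of HSPA1A. Of 22 p53 targets 3 were lower and 0 higher (13.6%, against 15.9% of all members). These were GDF15 by -1.40, the cell cycle inhibitor CDKN1A by -1.20 and PLK2 by -1.22. The calls of the 2 lipid genes and of the 3 p53 targets were lost when single arrays were left out, with adjusted p of up to 0.239 for CDKN1A without H9 replicate 1.

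In the remaining lists between 0 and 2 members were called, against a share of 15.9% among all members. Of 8 metallothionein members MT1H alone was called, lower by -0.70, and with median scaling the 1 call was of a gene higher in H9. Of 15 members of the 20q11.21 region, which is often gained in cultured stem cells, 2 were lower, ID1 by -1.21 and COMMD7 by -0.58, and 0 were higher. These calls and that of MT1H were lost when single arrays were left out, with adjusted p of up to 0.12 for ID1 and 0.199 for COMMD7, and 0.19 for MT1H. Of 9 germline members 2 were lower, SOHLH2 by -1.44 and PIWIL2 at least 1.31-fold, of 5 NLRP members 1 was higher (NLRP2) and 1 lower (NLRP8, -1.28, adjusted p 8.06e-04), and of 5 HOX members 0 were called. The calls of SOHLH2 and PIWIL2 were also lost when single arrays were left out, with adjusted p of up to 0.0577 and 0.289. On the DNA methylation list of 13 members, TRIM28 was higher by 1.36 and the maintenance enzyme DNMT1 lower by -0.55. TRIM28 is the corepressor of zinc finger proteins and not itself a writer or eraser of DNA methylation. Both calls were lost without CT2 replicate 1, where the log2 differences were 1.34 and -0.46.

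**Figure D4:**
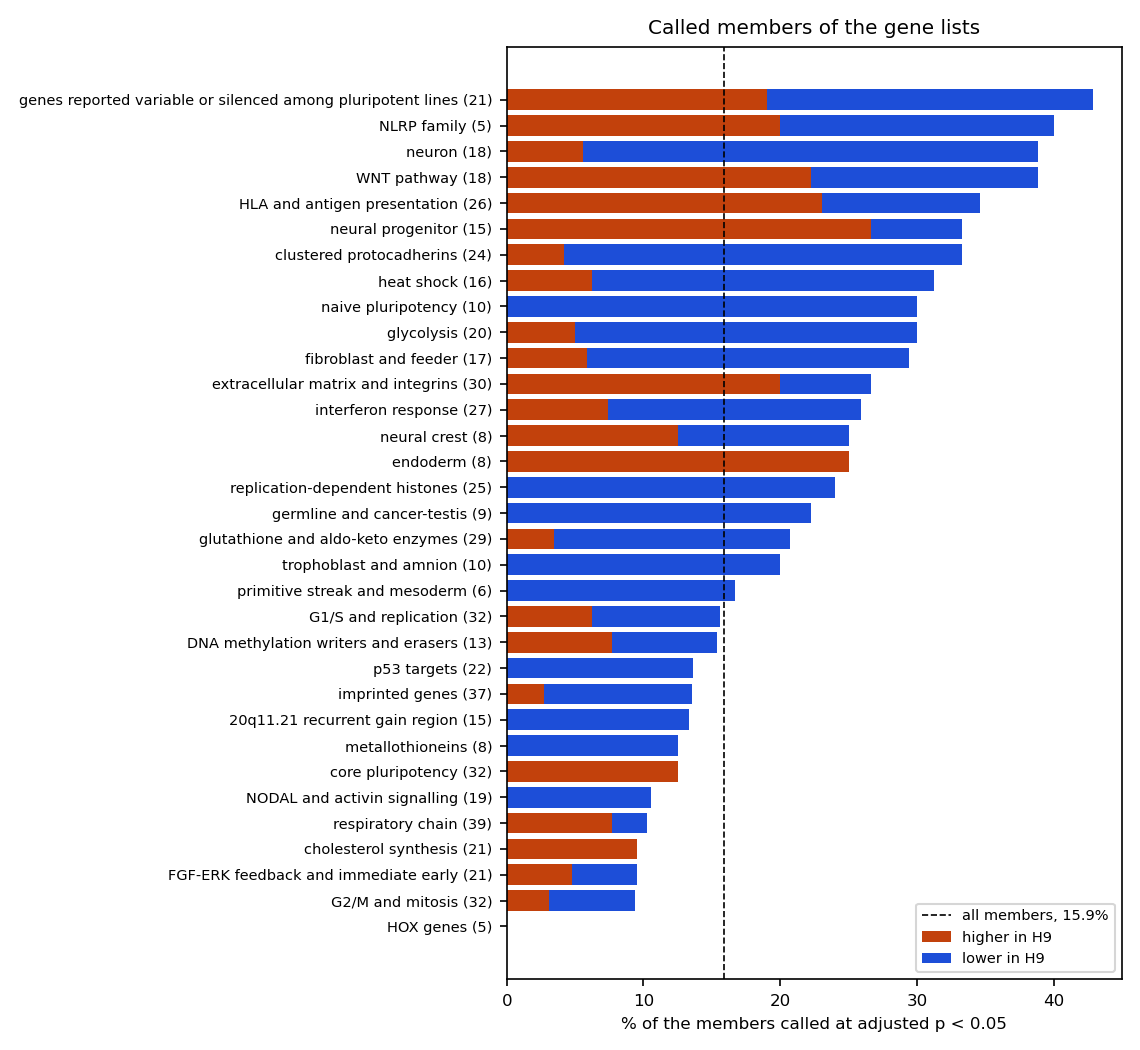
Share of each list's members (horizontal axis, percent) called higher in H9 (orange) or lower in H9 (blue), with the number of members in parentheses and a dashed line at the 15.9% called among all members. Lists above and below the line both occur, and the histone, naive pluripotency and p53 bars hold genes lower in H9 only, with the p53 bar below the line.

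Zinc finger genes were examined as a family because several led the differences, a choice made after those values were seen. Of 387 members whose symbol is ZNF and a number, 19 were higher in H9 and 59 were lower (20.2%, median -0.21). On chromosome 19, which holds the large ZNF clusters, 6 of 189 were higher and 36 lower (22.2%, median -0.36). Other genes of chromosome 19 were called about as often, 72 of 748 being higher and 105 lower (23.7%, median -0.06). By chromosome the share called ran from 11.4% on chromosomes 4 and 8 to 23.4% on chromosome 19 and 24.2% on chromosome 16.

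Called genes were then compared with their neighbours. Among 13377 pairs of adjacent measured autosomal genes both were called in 359, in the same direction in 209 pairs and in opposite directions in 150. They formed 177 runs of 1 direction, the longest of 5 genes. Over all 13951 genes tested 5.99% were called higher and 8.74% lower, so some neighbours share a direction by these rates alone. Whether the pairs exceed that number was not tested, and the counts are a description only. The runs with the largest smallest difference were KHDRBS3 with COL22A1 on chromosome 8, both higher in H9 (2.28 and 2.50), and ZP3 with DTX2 on chromosome 7, both lower (-1.93 and -1.65), as log2 differences. With the mean over all kept probes the calls of ZP3 and DTX2 were both lost, with log2 differences of -0.75 (adjusted p 0.115) for ZP3 and -0.29 (adjusted p 0.506) for DTX2. CST6 with GAL3ST3 on chromosome 11 (-2.21 and -1.61), FAM217B with PPP1R3D on chromosome 20, and MLPH with RAB17 on chromosome 2 (-1.56 and -3.16) followed. COL22A1 was at background in CT2 and CST6 in H9, so that their folds are bounds, at least 2.84-fold higher and at least 2.92-fold lower in H9. MLPH and RAB17 both act in organelle transport. A second DTX2 probe gave 1.08, the opposite sign, and the call of MLPH was lost without CT2 replicate 1 (adjusted p 0.0545).

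The number of CG dinucleotides in the promoter window was counted for the 9749 members that have a window in the RefSeq table. CG reads the same on both strands, and 87.4% of members and 56% of all 27305 windows held at least 10. Genes higher in H9 had a median of 29 CG, genes lower in H9 a median of 26 and genes not called a median of 26. With the members cut by CG count into 4 classes of like size, from the fewest CG to the most, 5.41%, 6.2%, 6.69% and 8.82% were higher in H9, and 9.64%, 8.66%, 9.64% and 9.44% were lower. The 44 called genes at background on both H9 arrays that had a window held a median of 18, and the 69 at background on both CT2 arrays a median of 24. These are counts of letters and carry no measure of methylation.

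The mismatch and knockdown arrays give the same line contrast in other arrays of these lines. JMJD1C averaged 10.63 ± 0.08 in H9 and 10.72 ± 0.04 in CT2 with the knockdown, against 11.99 ± 0.67 in untreated H9 and 11.69 ± 0.33 in untreated CT2, so the target was lower on the arrays labelled as knockdown. Of the 1956 genes called in untreated cells, 1754 had the same sign in the knockdown arrays (89.7%, against 68% of all members), and 213 were called there in the same direction, which is 10.9% of the untreated calls and 60.7% of the 351 knockdown calls (2.86% of members, and 3.02% of all genes tested). These genes were chosen by their untreated values, which favours larger differences there, so their medians are given only as a description. The 811 genes higher in untreated H9 had a median log2 difference of 1.07 untreated and 0.32 with the knockdown, and the 1145 lower genes -1.09 untreated and -0.44 with the knockdown. Without any 1 of the 4 knockdown arrays, between 157 and 165 members were called in the knockdown arrays.

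The mismatch arrays did not show the same order. There 933 of the 1956 called genes (47.7%) had the sign of the untreated contrast, against 47.4% of all members, and 362 members were called (2.95%). The medians were 0.01 for the genes higher and 0.07 for the genes lower in untreated H9. Of the 1956 called genes 851 kept their sign in both the mismatch and the knockdown arrays. This held for 0 called genes of the lists of NODAL signalling, FGF and ERK response, glycolysis, respiratory chain and DNA methylation. It held for 6 called WNT genes, 7 antigen presentation genes and 7 protocadherins. CT2 mismatch replicate 2 stood apart, since it alone correlated best with an array of the other line. This was untreated H9 replicate 1 (r = 0.971 across genes, against 0.967 with its own replicate). CT2 mismatch replicate 1, untreated H9 replicate 2 and CT2 knockdown replicate 2 also correlated best outside their own group, but within their line. With CT2 mismatch replicate 1 alone against H9 mismatch the share with the untreated sign was 68.8%, and with CT2 mismatch replicate 2 alone it was 33.2%, a split chosen after seeing the data. The mean level of the 811 higher genes was 10.19 and 10.22 in untreated H9, 9.03 and 9.02 in untreated CT2, and 9.50 and 9.92 on the CT2 mismatch arrays. That of the 1145 lower genes was 9.28 and 9.49 in untreated H9, 10.65 and 10.54 in untreated CT2, and 10.14 and 9.62 on the CT2 mismatch arrays. CT2 mismatch replicate 2 thus lay nearer to untreated H9 than to untreated CT2 in the mean of both sets, and yet measured 14.09 for MEG3, where untreated H9 measured 5.92 and 6.48.

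**Figure D5:**
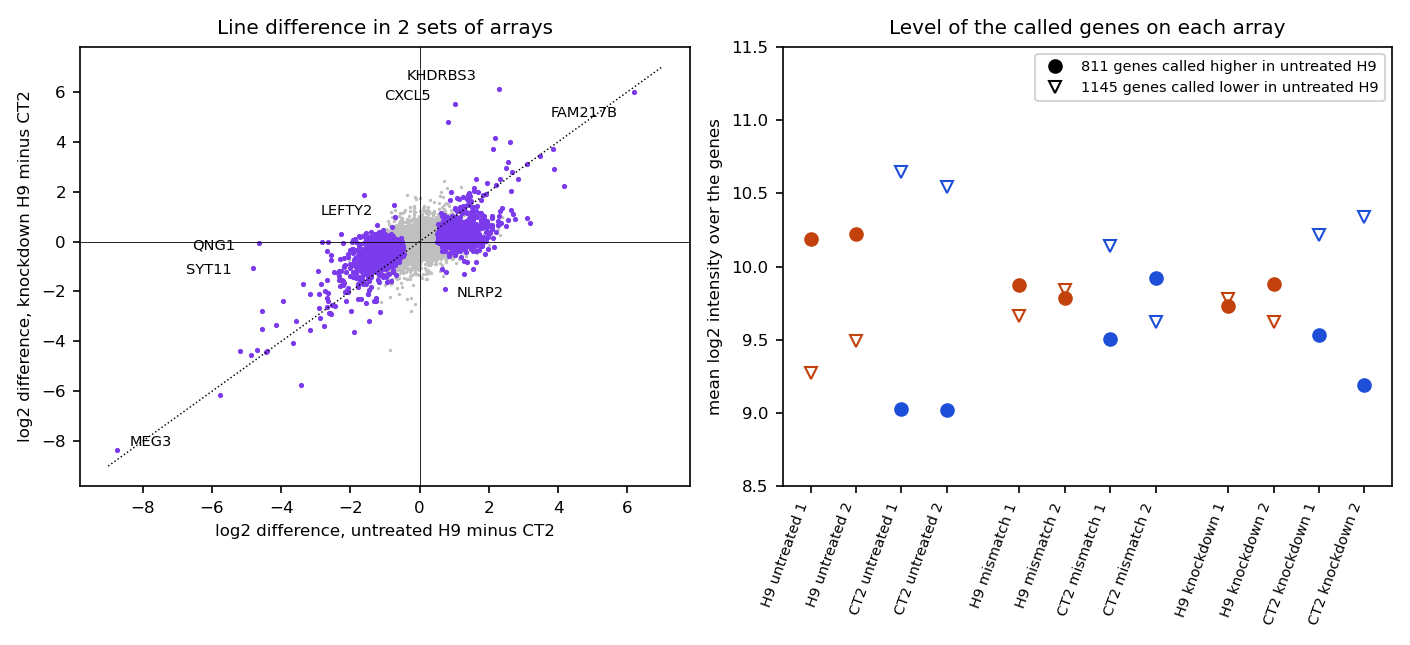
Left, log2 difference between H9 and CT2 in the knockdown arrays (vertical axis) against that in the untreated arrays (horizontal axis) for all members in grey and the 1956 called in purple, with a dotted line of equality. Right, mean log2 intensity of the 811 genes higher (circles) and the 1145 genes lower (triangles) in untreated H9 on each array, H9 in orange and CT2 in blue, on an axis that does not start at 0. CT2 mismatch 2 lies at 9.92 for the first set and 9.62 for the second, nearer to the H9 arrays than to untreated CT2.

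Large differences kept their sign more often on the knockdown arrays than on the mismatch arrays. Of the 115 called genes with at least a 4-fold difference, 42 were higher in H9 and 73 lower, and 41 and 72 of them had the same sign with the knockdown. With the mismatch hairpin 26 of the 42 (61.9%) and 56 of the 73 (76.7%) had the same sign, and against CT2 mismatch replicate 2 alone 65.2% of the 115 did. All 6 H9 arrays lay beyond all 6 CT2 arrays for 19 of the 42 and 43 of the 73, for 235 of all 1956 called genes (12%), and for 393 of the 12280 members (3.2%). The widest gaps between the lines over all 12 arrays were those of MEG3 (7.54 log2 units), ZNF667-AS1 (5.73) and FAM217B (5.44). ZNF560, named after its values were seen, came next with 3.95, then QPCT with 3.94 and DNAJA4 with 3.93. These 6 genes were ranked among those whose 6 H9 arrays lay wholly on one side of the 6 CT2 arrays. That order is thus the rule by which they were chosen and not a further result.

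The change of the line difference was tested as well. A change between untreated and knockdown arrays was called for 22 members (0.179%, against 0.194% of all genes tested, of which 9.67% had an unadjusted p under 0.05), which was 12 without CT2 untreated replicate 1 and 14 without CT2 untreated replicate 2. LEFTY2 differed by -2.26 between the lines untreated, by -0.03 with the mismatch hairpin and by 0.30 with the knockdown, and QNG1 by -4.66 untreated, -0.18 with the mismatch hairpin and -0.07 with the knockdown. CXCL5 differed by 1.03 untreated, 0.13 with the mismatch hairpin and 5.53 with the knockdown. KHDRBS3, an RNA-binding splicing regulator, differed by 2.28 untreated, 5.87 with the mismatch hairpin and 6.13 with the knockdown, so that its wider difference stood on both sets of hairpin arrays. NLRP2 differed by 0.72 untreated, 0.09 with the mismatch hairpin and -1.89 with the knockdown.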

How the data were processed

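Total RNA of H9 and CT2 cells was extracted with the RNAqueous-4PCR kit, treated with DNase I, checked on an Agilent Bioanalyser, labelled with biotin by TotalPrep and hybridised to Illumina bead arrays, per the labels' protocols. The authors deposited a non-normalized intensity and a detection p-value for each probe, exported from GenomeStudio per the submitters' processing notes (no version stated there). As an alternative the authors' deposited value table, a linear intensity with each line normalized separately by a method not stated, was used. The H9 and CT2 blocks held 47320 and 47315 probes, of which 47314 were in both and were joined by probe.

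In limma 3.58.1 (R 4.3.3) the background was corrected by normexp (offset 16), its negative controls being estimated by limma out of the deposited detection p-values, followed by quantile normalization over the 12 arrays and log2. Probes detected at p under 0.05 on at least 2 of 12 arrays were kept (25905), 19076 of which had 1 gene symbol, and the probe with the highest mean stood for a gene. The fit had 1 mean per group (eBayes with trend and robust) with Benjamini-Hochberg adjustment across the 13951 genes and a threshold of 0.05. Chromosomes and promoters came from RefSeq tables (GRCh38.p14). The scripts were tested on simulated data.

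Named genes had an adjusted p under 0.05 and arrays of the lines that did not overlap: the 10 largest differences each way among genes detected in both lines, the 8 largest fold bounds each way among genes at background on both arrays of 1 line, up to 4 members of each list with the smallest p, and the 5 runs of neighbouring genes with the largest smallest difference. The members and lists were chosen with earlier results of these data known.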

Additional observations from a re-analysis of the deposited data

Results flagged for a closer look

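The line difference (H9 minus CT2) changed between the untreated and the knockdown arrays in 8 of the named genes, by limma's test of the change itself, given here as untreated minus knockdown on the log2 scale. The change was -4.50 for the chemokine CXCL5, with a line difference of 1.03 untreated and 5.53 with the knockdown (adjusted p 2.62e-05). It was -3.85 for KHDRBS3, with 2.28 untreated and 6.13 with the knockdown (adjusted p 2.62e-05), while with the mismatch hairpin the line difference was 0.13 for CXCL5 and 5.87 for KHDRBS3. For QNG1 it was -4.59, with -4.66 untreated, -0.18 with the mismatch hairpin and -0.07 with the knockdown (adjusted p 3.10e-05).

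The change was -3.76 for SYT11, with -4.83 untreated, -3.97 with the mismatch hairpin and -1.06 with the knockdown (adjusted p 0.000207), and -2.56 for LEFTY2, with -2.26 untreated, -0.03 with the mismatch hairpin and 0.30 with the knockdown (adjusted p 0.00176). NLRP2 changed by 2.61, with 0.72 untreated, 0.09 with the mismatch hairpin and -1.89 with the knockdown (adjusted p 9.01e-05). EGR1 changed by 1.995, with 0.76 untreated, 0.14 with the mismatch hairpin and -1.24 with the knockdown (adjusted p 0.00587). SFRP1 changed by 1.06, with 1.30 untreated, 0.67 with the mismatch hairpin and 0.24 with the knockdown (adjusted p 0.0467). The untreated arrays enter both the line difference and its change, so both tests share them.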

How the results depend on the processing

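Under the 14 alternatives 0 of the 134 called named genes changed sign where they were tested, 64 kept their call wherever they were tested, and 70 lost it under at least 1. With the filter of 6 of 12 arrays 129 of the 134 were tested, without ORM1, CSRP1, HES5, POSTN and PIWIL2, which have 13 alternatives each. Leaving out CT2 replicate 1 ended 65 of these calls, CT2 replicate 2 ended 53, H9 replicate 1 ended 42 and H9 replicate 2 ended 31. The number of members called between untreated lines ran from 352 to 1687 when 1 untreated array was left out, against 1956 with all. With the knockdown it ran from 157 to 165, against 351, and the number whose line difference changed ran from 12 to 24, against 22. The change was called in 56 members without the 4 mismatch arrays, and the cause was not tested. Under the other settings the untreated count lay between 1438 (no trend and no robust settings) and 2706 (without the 4 mismatch arrays). Median scaling called more genes higher in H9 than lower with the knockdown as well (54.6%, against 37.9%), and for the change of the line difference the share was 62.5%, against 45.5%. With the replicate number as a block, 1568 members were called untreated, 263 with the knockdown and 17 for the change. Whether the numbers pair the samples is not known. The deviations of replicate 1 in untreated H9 and untreated CT2 correlated at -0.25 across genes. Over all pairs of groups this correlation ran from -0.37 to 0.39, and with 2 arrays a group it cannot decide the question. The 4 untreated arrays, the lack of a slide or date and the separate blocks of the lines limit what the comparison can show, and dim genes are known only to a bound.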
